A study of Rattus norvegicus with 6 samples.

Results

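The genes examined here encode the NF-kB subunits Nfkb1, Nfkb2, Rela and Relb and the inhibitors Nfkbib, Nfkbia and Tnfaip3. With them are the IKK kinase genes Ikbkb, Chuk and Ikbkg. These 10 genes were taken by symbol and not by a threshold on their values, but with earlier results of these data known. A gene was found on the array through the accession of its probes, and the probe with the highest mean signal represented it. Of the 10 genes, 8 had a probe matched in this way, of the 16575 genes matched in all, and Relb and Tnfaip3 were not analysed here. All 8 were well above background on all 6 arrays, and their levels are therefore measured in both groups.

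NF-kB is a family of transcription factors that act as dimers and that are held in the cytoplasm by inhibitors of the IkB family. Receptors for cytokines and microbial products activate the IKK complex, whose kinases Chuk (IKK alpha) and Ikbkb (IKK beta) and regulatory subunit Ikbkg (NEMO) mark the IkB proteins for degradation, so that the dimers enter the nucleus. NF-kB then induces its own inhibitors, Nfkbia (IkB alpha) and Tnfaip3 (A20), together with Nfkb1, Nfkb2 and Relb, and the messages of these inhibitors are commonly read as a sign of its activity. In the heart the pathway is known for inflammatory gene expression and for a part in hypertrophy and survival.

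Neonatal rat ventricular cardiomyocytes (NRVCs) came from the minced ventricles of 8 to 10 Sprague-Dawley rats aged 1 to 2 days, so that each culture holds cells of pooled animals. The cells were grown in a serum-free medium either without C3a (control, n = 3) or with recombinant C3a, the fragment released from complement C3 on cleavage, at 0.5 µg/ml for 12 h (C3a, n = 3). The study's methods describe a short starvation in low serum before stimulation. The records of the control cultures name no vehicle, and the animals carry no genetic change. Each RNA was labelled with Cy3 and hybridised to its own 1-colour Agilent array, and the 6 arrays shared 1 slide. The controls occupied one side of it and C3a the opposite side, so that treatment and slide side cannot be told apart. Whether the replicates are separate cell preparations is not stated, and the p-values then measure only the spread between these 6 samples.

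Levels are given as the log2 signal relative to the 75th percentile of the same array, a scale on which 0 is the signal at that percentile and which does not allow one probe to be set against another. Between 53.7% and 57.3% of probes were well above background on 5 arrays and 38.6% on control replicate 1, where the local background was higher. The cultures carried the marks of cardiomyocytes, with all 8 of the markers used (Myh6, Myh7, Tnnt2, Tnni3, Actc1, Actn2, Ryr2 and Pln) well above background on all 6 arrays. Markers of other cells were also present, since 5 of 7 fibroblast markers, 5 of 6 endothelial markers, 3 of 4 smooth muscle markers and 1 of 7 macrophage markers (Cd68) were well above background on all 6 arrays. The macrophage marker signals, summed relative to the 75th percentile, were between 1.03 and 1.48 in the controls and between 1.16 and 1.30 with C3a. The macrophage markers C1qa and Mrc1 were not well above background on any array. Ptprc was so on 1 control array and on no C3a array, with mean levels of -4.09 in the controls and -4.92 with C3a. Of the 4 macrophage markers kept for the comparison, Cd68 had a log2 fold change, C3a minus control, of -0.16, and the dim markers Itgam, Csf1r and C1qb, kept through the C3a arrays and measured on 2 of 3 controls, had 0.63, 0.41 and 0.21, each with an adjusted p of 0.743 from limma. The part of these markers in the results below was not tested. The summed cardiomyocyte signal was between 4185 and 5387 in the controls and between 5126 and 5806 with C3a, the fibroblast signal between 90.2 and 103.8 and between 90.3 and 105.8, and the endothelial signal between 33.3 and 45.9 and between 42.3 and 53.5. Such sums rest mostly on the brightest markers. The log2 fold change was above 0 for 6 of 8 kept cardiomyocyte, 2 of 7 fibroblast and 4 of 5 endothelial markers, and for 60.6% of all genes. In such mixed cultures, fewer cells of a type and less RNA per cell cannot be told apart.

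To show the sequence on which the pathway is known to act back on its own genes, the 250 bases before the annotated start were read from the RefSeq promoter table of the GRCr8 assembly for 8 of the 10 genes, those without an entry being Relb and Ikbkb. The kB consensus, the degenerate sequence to which NF-kB dimers bind, was searched on both strands, as was GGACTTTCC, a stretch that can overlap it. The consensus lay in 3 of these 8 genes, Nfkbia, Nfkb2 and Tnfaip3, and in 6.33% of all 33469 promoters of the table. GGACTTTCC lay in the same 3 genes and in 0.266% of all promoters. The promoters of Nfkbia and Nfkb2, as genes with matches and a measured level, and that of Nfkb1, the gene with the largest difference below, are shown with the matches in capitals. They lie at chr6:78597073-78597322 on the minus strand for Nfkbia, chr1:255108124-255108373 on the plus strand for Nfkb2 and chr2:226805463-226805712 on the minus strand for Nfkb1.
Nfkbia: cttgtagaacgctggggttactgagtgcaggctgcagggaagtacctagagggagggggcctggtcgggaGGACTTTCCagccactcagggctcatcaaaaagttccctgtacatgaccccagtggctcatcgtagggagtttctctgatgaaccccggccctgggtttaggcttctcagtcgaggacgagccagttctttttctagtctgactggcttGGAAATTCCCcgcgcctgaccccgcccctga
Nfkb2: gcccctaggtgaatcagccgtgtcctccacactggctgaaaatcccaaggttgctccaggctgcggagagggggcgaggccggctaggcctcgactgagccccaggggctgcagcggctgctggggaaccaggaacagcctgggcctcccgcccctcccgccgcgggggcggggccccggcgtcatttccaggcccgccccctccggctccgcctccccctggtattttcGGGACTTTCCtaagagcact
Nfkb1: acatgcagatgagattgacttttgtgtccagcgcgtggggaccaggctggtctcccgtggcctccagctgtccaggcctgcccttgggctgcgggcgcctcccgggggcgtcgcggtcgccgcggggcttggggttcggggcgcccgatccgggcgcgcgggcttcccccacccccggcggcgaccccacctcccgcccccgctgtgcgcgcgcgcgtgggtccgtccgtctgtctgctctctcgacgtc
In Nfkbia a consensus match began 31 bases before the start and GGACTTTCC began 180 bases before it. In Nfkb2 both motifs fell in 1 stretch that began 20 bases before the start. In the Nfkb1 window neither set of letters was found. A match describes these letters and was not tested for binding.

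The question asked of these arrays was whether the genes of the pathway differed with C3a, and the difference passed the test for none of the 8 measured genes. At an adjusted p under 0.05 from limma, fitted over all 23438 probes kept for the comparison, 0 of the 8 genes were called, and 0% of the 10390 genes with a kept probe. At an unadjusted p under 0.05, 0 of 8 genes were called, against 5.33% of all genes, and the test named in the study's methods also called 0 of 8 with or without adjustment. No gene had all 3 C3a arrays above or below all 3 controls, which was the case for 13% of all genes. The log2 fold changes of the 8 genes, C3a minus control, were between -0.30 and 0.026 with a median of -0.070, and the median over all genes was 0.036. Of the 8 genes, 7 had a value below 0, as did 39.4% of all genes.

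**Figure D1:**
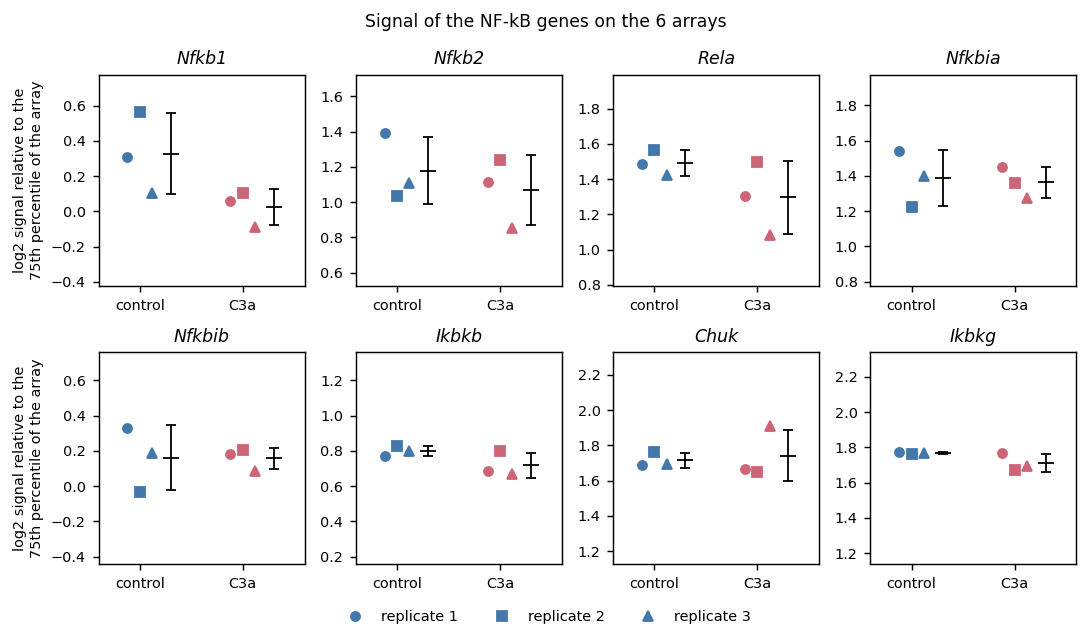
Level of the 8 measured NF-kB genes on the log2 scale, with the array's 75th percentile at 0 (y axis, a window of equal height around each gene's mean) in control (blue) and C3a (red) cultures. Symbols give the replicate number and black bars the mean ± SD (n = 3). The Nfkb1 groups meet at 0.11, with the lowest control just under the highest C3a array. The groups of Nfkbia, Nfkbib and Chuk lie across each other.

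Among the subunits, Nfkb1, whose product is processed to a DNA-binding subunit of the classical dimer, showed the largest difference. Its level was 0.31, 0.56 and 0.11 in control replicates 1, 2 and 3, and 0.058, 0.11 and -0.090 in C3a replicates 1, 2 and 3. The groups met at 0.11, where the lowest control lay just under the highest C3a array, and control replicate 2 was the highest of the 6. The control mean was 0.33 ± 0.23 (SD, n = 3) and the C3a mean 0.025 ± 0.10 (SD, n = 3), a log2 fold change of -0.30 (standard error 0.14, 95% interval -0.63 to 0.022), or 0.811-fold. This did not pass the threshold (adjusted p = 0.743 from limma, and p = 0.2 by a two-sided exact permutation test, where 0.1 is the smallest that 3 against 3 allow). Leaving out control replicate 2 moved it to -0.18, and the rest of the alternatives gave values between -0.63 and -0.23.

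A further, dimmer Nfkb1 probe for the same transcript gave values in the same direction. It read -2.90, -2.18 and -2.63 in the controls and -3.20, -3.02 and -2.86 with C3a, and it was not well above background on control replicate 1. Its log2 fold change was -0.46 (standard error 0.19, 95% interval -0.91 to -0.0010), with an adjusted p of 0.743 from limma. It was -0.26 without control replicate 2, -0.62 without control replicate 1 and -0.12 after normexp background correction. Both probes lay below 0 with overlapping groups, and both had control replicate 2 as their highest array.

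Rela, which encodes the transactivating partner in the classical dimer, read 1.48, 1.57 and 1.42 in the controls and 1.30, 1.5 and 1.08 with C3a. C3a replicate 2 lay among the controls and the other C3a arrays lay below them. The log2 fold change was -0.19 (standard error 0.13, 95% interval -0.49 to 0.10), and the adjusted p from limma was 0.743. Without C3a replicate 3 it was -0.089, and without C3a replicate 2 it was -0.30. Nfkb2, whose product serves the alternative pathway with Relb, read 1.39, 1.04 and 1.11 in the controls and 1.11, 1.24 and 0.85 with C3a, so that the groups lay across each other. Its log2 fold change was -0.11 (standard error 0.14, 95% interval -0.45 to 0.23; adjusted p = 0.822 from limma), and -0.0031 without control replicate 1. All 3 measured subunits had a log2 fold change below 0, also under each of the 17 processing alternatives. Those that changed only the filter, the replicate block, the variance trend or the test could not change this value. Without normalization between arrays, 4.66% of all genes lay above 0.

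Among the inhibitors, Nfkbia, the feedback inhibitor with the promoter matches shown above, read 1.54, 1.22 and 1.40 in the controls and 1.45, 1.36 and 1.28 with C3a. All C3a arrays lay within the range of the controls. The control mean was 1.39 ± 0.16 (SD, n = 3) and the C3a mean 1.36 ± 0.088 (SD, n = 3), and the log2 fold change was -0.024 (standard error 0.11; adjusted p = 0.956 from limma). In fold terms this was 0.983, with a 95% interval from 0.815 to 1.19. Its direction is not given, since the value was 0.051 without control replicate 1 and 0.019 without C3a replicate 3. The only exposure to C3a was 12 h, and levels at earlier times were not measured. Nfkbib (IkB beta), an inhibitor that is less readily induced, read 0.33, -0.037 and 0.19 in the controls and 0.18, 0.20 and 0.086 with C3a. Here too the C3a arrays lay within the range of the controls, and the log2 fold change was -0.0033 (standard error 0.12, 95% interval -0.28 to 0.28; adjusted p = 0.995 from limma).

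The IKK genes had the smallest standard errors of the 8. Ikbkg, the regulatory subunit, read 1.77, 1.76 and 1.77 in the controls and 1.77, 1.67 and 1.69 with C3a, with C3a replicate 1 level with the controls. Its log2 fold change was -0.058 (standard error 0.087, 95% interval -0.26 to 0.15; adjusted p = 0.846 from limma). A dimmer Ikbkg probe was well above background on 1 control array and on no C3a array and was not compared. Ikbkb, the kinase of the classical pathway, read 0.77, 0.83 and 0.80 in the controls and 0.69, 0.80 and 0.67 with C3a, with C3a replicate 2 among the controls. Its log2 fold change was -0.083 (standard error 0.090, 95% interval -0.30 to 0.13; adjusted p = 0.791 from limma). Chuk, the kinase of the alternative pathway, read 1.69, 1.76 and 1.69 in the controls and 1.67, 1.65 and 1.91 with C3a, and C3a replicate 3 was the highest array while the others were the lowest. Its log2 fold change was 0.026 (standard error 0.11, 95% interval -0.22 to 0.28; adjusted p = 0.948 from limma), and a dimmer Chuk probe, not well above background on control replicate 1, gave 0.063 (95% interval -0.31 to 0.43). No direction is given for Chuk, which was -0.057 without C3a replicate 3 and -0.30 without normalization between arrays, where the median over all kept probes was -0.28.

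**Figure D2:**
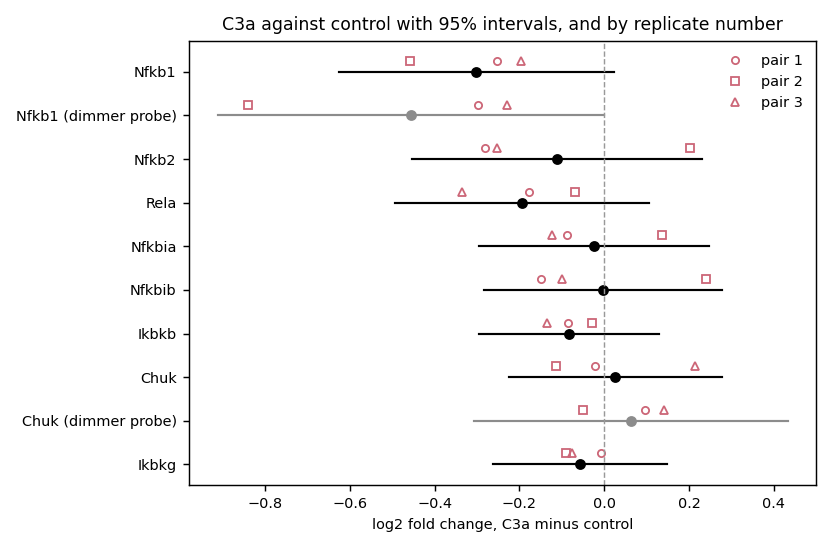
Log2 fold change, C3a minus control (x axis), of each probe of the NF-kB genes that was kept, with its 95% interval from limma (black for the probe that represents the gene, grey for dimmer probes). Open red symbols give the C3a minus control difference of the arrays with the same replicate number; for Nfkb1, Rela, Ikbkb and Ikbkg all 3 of these differences lie below 0.

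Arrays with the same replicate number deviated together, so the differences were also taken within these pairs. For Nfkb1 they were -0.25, -0.46 and -0.20 in pairs 1, 2 and 3, and for its dimmer probe -0.30, -0.84 and -0.23. For Rela they were -0.18, -0.069 and -0.34. Pair 2 was the exception for Nfkbia, with 0.14 against -0.087 and -0.12, for Nfkbib, with 0.24 against -0.15 and -0.099, and for Nfkb2, with 0.20 against -0.28 and -0.25. Nfkb1, Rela, Ikbkb and Ikbkg were below 0 in 3 of 3 pairs, 4 of 8 genes, which was the case for 15.1% of all genes. The same 4 genes met this after quantile normalization, against 19.4% of all genes, and with the percentile taken over probes detected on all arrays, against 19% of all genes. Without normalization between arrays all 8 did, against 76.9% of all genes. With the replicate block, that is with the pairs in the fit, Nfkb1 had an unadjusted p of 0.0247 (95% interval -0.55 to -0.056) and an adjusted p of 0.306 from limma. It was then the 1 of 8 genes under 0.05 without adjustment, against 11.8% of all genes in either direction and 6.04% in that direction, and 0 of 8 passed with adjustment.

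The other genes of the pathway were examined as lists. Of 8 further Rel, IkB and kinase genes, 5 had a matched probe and 4 were kept. Of these, 0 passed at an adjusted or an unadjusted p under 0.05, against 0% and 5.33% of all genes. Bcl3, a nuclear IkB protein, read -1.75, -2.38 and -1.90 in the controls and -1.65, -1.72 and -2.07 with C3a, a log2 fold change of 0.20 (standard error 0.19), which was 0.014 without control replicate 2 and 0.33 without control replicate 1. Nfkbie (IkB epsilon) had a log2 fold change of -0.012 (standard error 0.13). Map3k14 (NIK), the kinase that drives the alternative pathway, was measured on 2 of 3 control arrays and had a log2 fold change of -0.39 with a 95% interval from -1.02 to 0.24, which was -0.62 without control replicate 1 and -0.11 without control replicate 3. Rel had no matched probe and was not analysed here. Of 18 receptors and adaptors upstream of IKK, 12 were kept and 0 passed either threshold, beside the same shares of all genes. Their log2 fold changes were between -0.21 and 0.054, with 6 above 0 and 6 below, and 60.6% of all genes were above 0. Of the 12, 1 lay above the median of all kept probes, beside 46.1% of all genes. Of 12 negative regulators, 11 were kept and 0 passed either threshold, beside the same shares of all genes. With the replicate block, Zc3h12a (regnase-1), a nuclease that degrades inflammatory messages, was the 1 of these 11 with an unadjusted p under 0.05 (log2 fold change 0.35, adjusted p = 0.283 from limma), against 11.8% of all genes. It was measured on 2 of 3 controls, its value was 0.028 without normalization between arrays, and it is named after its values were seen. Tax1bp1, a partner of A20 named after its values were seen, was the 1 gene of that list with groups that did not overlap, at 2.76, 2.84 and 2.72 in the controls and 2.65, 2.60 and 2.44 with C3a (log2 fold change -0.21, adjusted p = 0.743 from limma). All C3a arrays lay below all controls for 4.84% of all genes.

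Target genes of NF-kB differed in whether they were measured at all. Of 36 listed targets, all with a matched probe, 10 were not well above background on any of the 6 arrays by any of their probes, namely Il6, Il1b, Tnf, Cxcl2, Ptgs2, Nos2, Sele, Csf2, Mmp9 and Plau. These include the main inflammatory cytokines of the pathway and the inducible enzymes of prostaglandin and nitric oxide synthesis, and they were below this limit with and without C3a. A further 7 targets were measured on some arrays only, 4 of which were kept for the comparison, and Traf1 was among the rest, with 1 control array and no C3a array well above background. By contrast, 19 targets were well above background on all 6 arrays, among them the monocyte chemokine Ccl2, the adhesion molecules Icam1 and Vcam1 and the mitochondrial antioxidant enzyme Sod2. Ccl2 read 1.86, 1.66 and 1.73 in the controls and 1.84, 1.75 and 1.59 with C3a. Icam1 read 1.67, 1.63 and 1.69 in the controls and 1.82, 1.61 and 1.64 with C3a, and Sod2 2.16, 2.07 and 2.01 against 2.22, 2.04 and 2.03. For these 3 genes the groups lay across each other. The log2 fold change was -0.022 for Ccl2 (95% interval -0.28 to 0.24), 0.025 for Icam1 (95% interval -0.21 to 0.26), 0.013 for Sod2 (95% interval -0.23 to 0.25) and -0.13 for Vcam1 (95% interval -0.43 to 0.16). Birc3, an inhibitor of apoptosis and a classical target, was measured on 2 of 3 control arrays and had a log2 fold change of -0.056 (95% interval -0.46 to 0.34).

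Of the 23 targets kept for the comparison, 0 passed the adjusted threshold. At an unadjusted p under 0.05, 2 of the 23 were higher with C3a and 0 lower, against 2.91% and 2.43% of all genes. With the replicate block 3 of the 23 were higher and 0 lower, Xiap being the addition, against 5.8% and 6.04% of all genes, and 0 passed with adjustment. The 2 without the block were Bcl2l1, which encodes the survival protein Bcl-xL, with a log2 fold change of 0.48 (95% interval 0.16 to 0.81), and the chemokine Ccl5, with 0.35 (95% interval 0.069 to 0.63), both with an adjusted p of 0.743 from limma. Bcl2l1 read -2.54, -2.60 and -2.53 in the controls and -2.13, -2.28 and -1.80 with C3a. Ccl5 read -2.80, -2.83 and -2.51 in the controls and -2.34, -2.47 and -2.27 with C3a. Other Bcl2l1 probes kept for the comparison gave 0.29 (95% interval -0.069 to 0.66) and 0.047 (95% interval -0.34 to 0.44), with overlapping groups, so that the probes of this gene disagree. In the represented probes of both genes the groups did not overlap, and both were dim and not well above background on control replicate 1. The filter kept each of them because it was detected on all C3a arrays, and for both the value without normalization between arrays was smaller, at 0.16 for Bcl2l1 and 0.026 for Ccl5. There 0 of the 23 targets had an unadjusted p under 0.05, against 0.0866% of all genes higher and 10.8% lower. Ccl5 was also not under it without a filter on dim probes, after normexp and with a variance trend. The same held for Ccl5 without control replicate 1 or 2 and without C3a replicate 1 or 3. Of the 4 targets with all C3a arrays above all controls, against 8.15% of all genes, the others were Xiap (log2 fold change 0.23, and 0.0019 by its other probe) and Tapbp (0.15), both named after their values were seen and both well above background on all 6 arrays. Over the 19 targets measured on all 6 arrays, 17 log2 fold changes were above 0 and the median was 0.068, beside 60.5% above 0 and a median of 0.033 over all genes measured on all 6 arrays. Of these 19, 11 lay above the median of all kept probes, beside 44.4% of all genes measured on all 6 arrays. The groups did not overlap for 2 of the 19, against 12.5% of all genes measured on all 6 arrays. Over the 23 kept targets, 20 were above 0 as reported, 18 after quantile normalization, 16 with the percentile over detected probes and 2 without normalization between arrays, where the median of all kept probes lay at -0.28. The shares of all genes above 0 in the same order were 60.6%, 51.4%, 52.5% and 4.66%. Relative to the median of all kept probes, 14 of the 23 lay above as reported and 16 after quantile normalization, beside 46.1% and 44.2% of all genes. The percentile over detected probes and the lack of normalization move all genes by the same amount. Their counts relative to the median therefore equal the reported one by construction. The target list was chosen with earlier results of these data known, so these shares only describe it. The kB consensus lay in the promoters of 10 of the 26 targets with a promoter entry, against 6.33% of all promoters. GGACTTTCC lay in 0 of the 26, against 0.266%. Among the 10 were Il6 and Cxcl2, which were not above background, and Vcam1 and Tapbp, which were measured on all arrays.

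**Figure D3:**
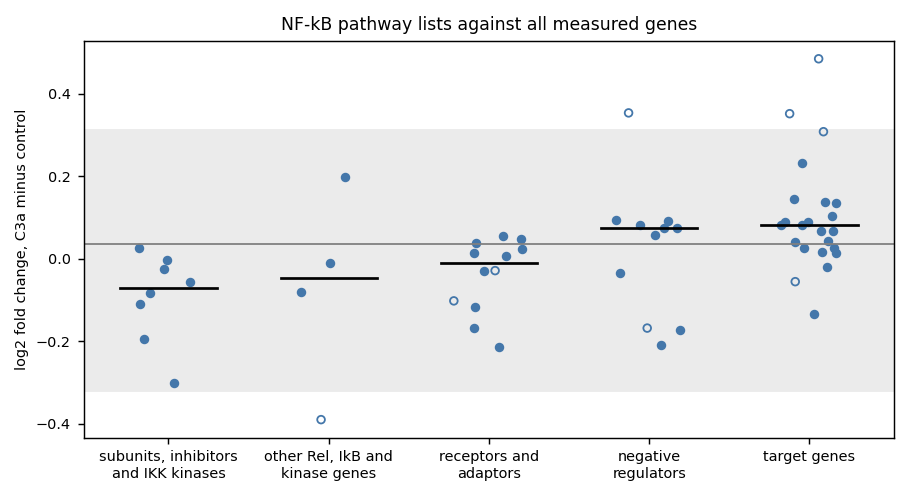
Log2 fold change, C3a minus control (y axis), of the kept genes of the 5 NF-kB lists. Filled points are genes well above background on all 6 arrays, open points those measured on 2 of 3 controls, black bars the list medians, and the grey line and band the median (0.036) and the range from the 5th to the 95th percentile (-0.32 to 0.31) of all 10390 genes. The 8 subunit, inhibitor and kinase genes lie within the band, at -0.30 to 0.026.

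The profile of Nfkbia over the 6 arrays was compared with that of the 10389 other genes with a kept probe, as the root mean square difference of the mean-centred log2 levels. The nearest were Asb18 (0.023), Pqbp1 (0.023) and Nudt6 (0.024), whose log2 fold changes with C3a were 0.014, -0.013 and 0.0055. With 6 arrays and a gene that varied little, this likeness is a description.

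**Figure D4:**
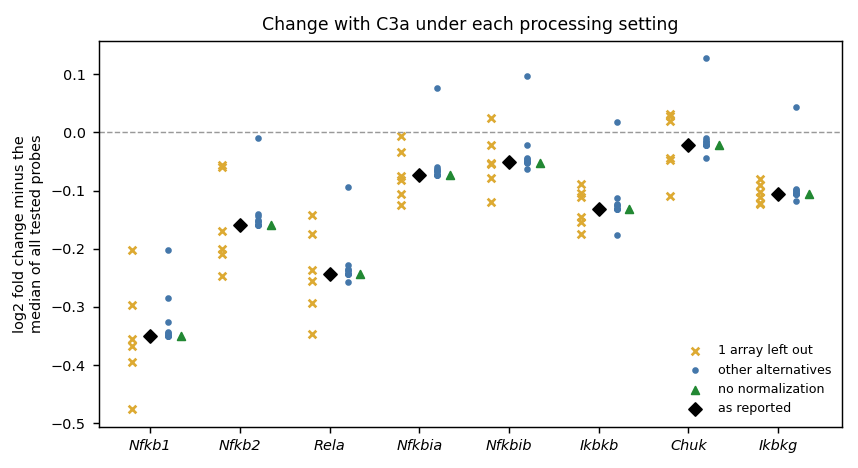
Log2 fold change of each gene, C3a minus control, less the median of all probes tested in the same setting (y axis), under the reported setting (diamonds), with 1 array left out (crosses), without normalization between arrays (triangles) and under the other alternatives (dots). On this axis the triangles equal the diamonds by construction. So do the dots for the percentile over detected probes, the replicate block, the variance trend and the methods' test. Nfkb1, Nfkb2 and Rela lie below 0 throughout; the 1 dot above 0 for each of Nfkbia, Nfkbib, Ikbkb, Chuk and Ikbkg is the value without a filter on dim probes, where the median over all probes was -0.10, and Nfkbib and Chuk also have crosses above 0.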

How the data were processed

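Gene expression was measured in 6 NRVC cultures, 3 control and 3 C3a, grouped by the condition and number in their titles. The authors deposited the intensity of each spot after background subtraction and detrending by Agilent Feature Extraction 11.5.1.1, not normalized between arrays, and a table of log2 values of 36638 probes. That table equalled the log2 intensity minus the array's 75th percentile to within 0.0062 at the median.

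Control spots and spots with outlier flags were left out and the other spots of a probe were averaged, which gave 45572 probes. Detection required at least 50% of a probe's spots to be well above background. The 23438 probes that met this on all 3 arrays of a group were kept and compared by limma 3.58.1 in R 4.3.3 (two-sided, Benjamini-Hochberg over these probes), a step tested on simulated data. The methods name a variance test in GeneSpring without a block, and it was run as an alternative. Accessions were matched to GRCr8 symbols for 21092 probes. The scanner files give no mean spot signal, so normexp used the median. The other alternatives changed the normalization, the detection filter, the variance trend and the replicate block, took the authors' log2 table, or left out 1 array. Precision is limited by the number of arrays.

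The genes and lists were chosen with earlier results of these data known. Named were the 10 genes, the listed genes with the largest differences at an unadjusted p under 0.05, set pathway genes and markers, and the nearest profiles to Nfkbia. Pairing came from the arrays: deviations from the group mean correlated at 0.28, 0.32 and 0.31 for equal numbers and between -0.26 and -0.093 otherwise, and the number is also the array's position on the slide. The lymphocyte list had 1 of 4 markers (Cd4) well above background on all 6 arrays.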

Additional observations from a re-analysis of the deposited data

How the results depend on the processing

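No gene of the 8 passed the adjusted threshold in any of the 17 alternatives. Nfkb1, Nfkb2, Rela, Ikbkb and Ikbkg kept a log2 fold change below 0 in each. Alternatives that changed only the filter, the replicate block, the variance trend or the test leave this value the same by construction. Without normalization between arrays, 4.66% of all genes lay above 0. Values near 0 changed sign, and the cause was not tested. Nfkbib was 0.0010 after quantile normalization, and Chuk was -0.30 without normalization between arrays (-0.26 for its dimmer probe) and -0.0024 with the percentile over probes detected on all arrays. Leaving out 1 array at a time gave -0.11 to 0.051 for Nfkbia, -0.10 to 0.082 for Nfkbib, -0.057 to 0.072 for Chuk and -0.060 to 0.17 for its dimmer probe. The count of genes at an unadjusted p under 0.05 became 1 (Nfkb1) without normalization, with the filter requiring all 6 arrays, with a variance trend and with the replicate block, and was 0 or 1 with 1 array left out, being 1 without control replicate 3; the shares of all genes in these 5 settings were 10.8%, 5.19%, 6.27%, 11.8% and 7.35%. The count of genes whose groups did not overlap became 2 after quantile normalization and after normexp, and 1 without normalization, with the percentile over detected probes and in the authors' log2 table, beside 13.3%, 10.8%, 9.86% and, for the detected probes, 1460 of 10390 of all genes, and 13.1% in the authors' table. With 1 array left out, which makes separation easier, it was between 1 and 3, beside 19% to 29.9% of all genes. Nfkb1 was among these genes after quantile normalization, normexp and the percentile over detected probes, in the authors' table, and without control replicate 3 or C3a replicate 2; without normalization the gene was Ikbkg. The 3 genes were Nfkb1, Rela and Ikbkb, without C3a replicate 2. Among the other listed pathway genes, the replicate block brought Zc3h12a and Xiap under an unadjusted p of 0.05 and took none above it. Tax1bp1 came under it after quantile normalization, without normalization, with the percentile over detected probes, with a variance trend and by the methods' test. It was 1 of 11 negative regulators each time, beside 5.23%, 10.8%, 5.44%, 6.27% and 4.93% of all genes. Map3k14 and Tnfrsf1a did so without normalization, Map3k14 and Ripk1 without control replicate 1, and Zc3h12a and Lif without C3a replicate 1. Shares of all genes were 10.8%, 5.51% and 3.01%. No gene of these lists passed with adjustment in any setting. The dim further probes of Nfkb1 and Chuk were not well above background on control replicate 1, where the local background was higher. The part of that background in their values was not tested.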
